A study of Homo sapiens with 2 samples.

Results

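The 10 genes described here encode proteins that tie the plasma membrane to the cytoskeleton through a FERM domain. They are the ERM genes moesin (MSN), ezrin (EZR) and radixin (RDX), the related tumour suppressor merlin (NF2), and 6 genes of the band 4.1 family (EPB41, EPB41L1, EPB41L2, EPB41L3, EPB41L4B and EPB41L5). The set was chosen by gene family around MSN and EPB41L4B, which had themselves been selected on the size of their differences between these arrays. The differences of those genes are therefore given as a description and support nothing further. The 10 genes are among 19775 genes with a probe set of their own, and every probe set that names only one of them was taken, 44 of the 54675 in the table.

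RKO is an established cell line from a human colon cancer, and its RNA was hybridised to 2 Affymetrix arrays. The control array held RNA from cells infected with a retrovirus that expresses a hairpin against luciferase (sh-Luci). The other array held RNA from cells infected with a retrovirus that expresses 1 hairpin against the L form of BCLAF1, a nuclear protein (sh-BCLAF1-L, called the knockdown below). Both cultures received fresh medium 24 h after infection and were selected with puromycin at 2 ug/ml for 72 to 96 h, so the controls carry the infection, the hairpin machinery and the drug as well. Each group was 1 array. No value below has a replicate, no p-value is given, and an effect of lower BCLAF1 cannot be told apart from another effect of the hairpin, the culture or the array.

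ERM proteins bind the inner face of the plasma membrane and membrane proteins such as CD44 with their FERM domain, and actin filaments with their C-terminal tail. They are folded shut until membrane phosphoinositides and phosphorylation of the tail open them, and they shape microvilli, the cell cortex and the rounded cell in mitosis. In intestinal epithelium ezrin is known as the ERM protein of the brush border. Merlin lacks the actin-binding tail of the ERM proteins and acts upstream of the Hippo kinases. Band 4.1 proteins couple membrane proteins to the spectrin and actin skeleton, and EPB41L4B and EPB41L5 are known from epithelial junctions and cell shape.

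Values are probe set intensities on a linear scale. A difference is log2(intensity + 1) in the knockdown minus that in the control, and a fold is 2 to the power of its size. A probe set is called detected when its mean log2 value over both arrays was at or above the 40th percentile over the whole table, an intensity of 63.7. A gene is represented by its probe set with the highest mean. Detection in this sense is a brightness rule and does not show that a gene is transcribed: CD3E, a T cell gene, read 135 in the control. The only error estimate the data allow is the spread between detected probe sets of the same gene, with a pooled SD of 0.16 over 6752 genes, which does not cover cultures or arrays. Over the whole table the median difference was 0.026, and counts of higher and lower values that turn when it is subtracted are given both ways. The central 95% of the 14507 detected genes differed by -0.31 to 0.37. The targeted gene checked the labels, with all 6 BCLAF1 probe sets lower in the knockdown, by 1.43-fold to 2.96-fold. Biotin spike-ins differed by a median of 0.20, higher on the knockdown array for 18 of 18 probe sets, and the 3' to 5' ratio of ACTB was 3.41 on the control and 3.81 on the knockdown array. Their part in the differences below was not tested.

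Moesin, the ERM protein known as the main one of leukocytes and of many cultured cells, stood lower in the knockdown on the probe set that detected it. That probe set (200600_at) read 556 on the sh-Luci array and 281 on the sh-BCLAF1-L array. The knockdown value was 50.5% of the control value, a difference of -0.98 or 1.98-fold. In a bulk sample, fewer cells with MSN and less MSN RNA per cell cannot be told apart. Among the 14507 detected genes this difference ranked 3 from the lowest, as a description only. The second MSN probe set (233749_at) read 49.1 and 50.2, below the detection intensity on both arrays, and differed by 0.031. The lower value of MSN thus rests on 1 detected probe set, and the median over both probe sets was -0.48, under 1.5-fold.

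Ezrin, the ERM protein of epithelial microvilli, read nearly alike on both arrays. Of its 5 probe sets, all detected, 208623_s_at read 976 (control) and 989 (knockdown). Probe set 217234_s_at read 802 and 846, and 208622_s_at read 585 and 584. Probe set 208621_s_at read 527 and 537. These 4 probe sets differed by -0.0042 to 0.077, within the spread between probe sets of a gene. The dimmest, 217230_at, read 148 and 204 and differed by 0.46. It is the only one of the 5 whose name lacks the ending _s_at, which marks a probe set shared between transcripts, and it stood apart from the other 4 by more than that spread. Such a gap is not rare. The 5 probe sets spanned 0.46, and 74 of the 292 genes with 5 detected probe sets spanned more, where the median span was 0.33. The median of the 5 was 0.025, and -0.00087 with the overall median subtracted.

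Radixin, the remaining ERM protein, was not detected. Its 4 probe sets read 51.7 and 50.9 (204969_s_at), 33.4 and 36.3 (212397_at), 26.2 and 28.1 (212398_at), and 10.8 and 12.5 (244739_at) in the control and the knockdown. None reached 63.7 on either array. Their differences lay between -0.023 and 0.20 with a median of 0.11. At these intensities a difference in RDX transcripts was not measurable in either direction.

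MSN was then set against its ERM relatives. On the brightest probe sets MSN differed from EZR by -1.001, so that the ratio of knockdown to control was 2.00-fold lower for MSN than for EZR. Against the undetected RDX the gap was -0.96. Of the 9 probe sets of EZR and RDX, 7 were higher in the knockdown (5 with the overall median subtracted), and the lowest difference was -0.023. Over all detected probe sets that name 1 gene, 53.9% were higher (47.2% after subtraction). The 4 RDX probe sets among the 9 were undetected, so nothing is read from this count. With a gene's median probe set value in place of its brightest, the gaps were -0.50 to EZR and -0.59 to RDX. Without probe sets named _s_at or _x_at, EZR was represented by 217230_at and the gap widened to -1.44.

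Merlin, whose loss causes the tumour syndrome neurofibromatosis type 2, was slightly lower on most of its probe sets. Its brightest, 218915_at, read 406 and 372, a difference of -0.13. The next, 204991_s_at, read 139 and 117 and differed by -0.25. Probe sets 217150_s_at (102 and 90.8) and 210767_at (87.8 and 78.3) differed by -0.17 and -0.16, and 238618_at (78.9 and 79.4) by 0.0079. The undetected ones read 54.6 and 50.4 (211092_s_at), 56.3 and 47.05 (211091_s_at), and 26.1 and 26.8 (211017_s_at). NF2 was thus lower on 4 of 5 detected probe sets and on 6 of 8 in all, with a median of -0.14. With the overall median subtracted it was lower on 5 of 5 and 7 of 8. Over all detected probe sets that name 1 gene, 46.1% were lower as deposited, and 47.2% were higher after subtraction. Probe sets of 1 gene share the same 2 RNA samples, so these counts are a description only. Each of these differences was under 1.5-fold, and 3 of the 5 detected ones exceeded in size the pooled SD of 0.16 between probe sets of a gene. The SD of the differences over all detected genes was 0.17, so differences of this size were common. Of the 14507 detected genes, 17.1% had a lower difference than NF2.

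**Figure D1:**
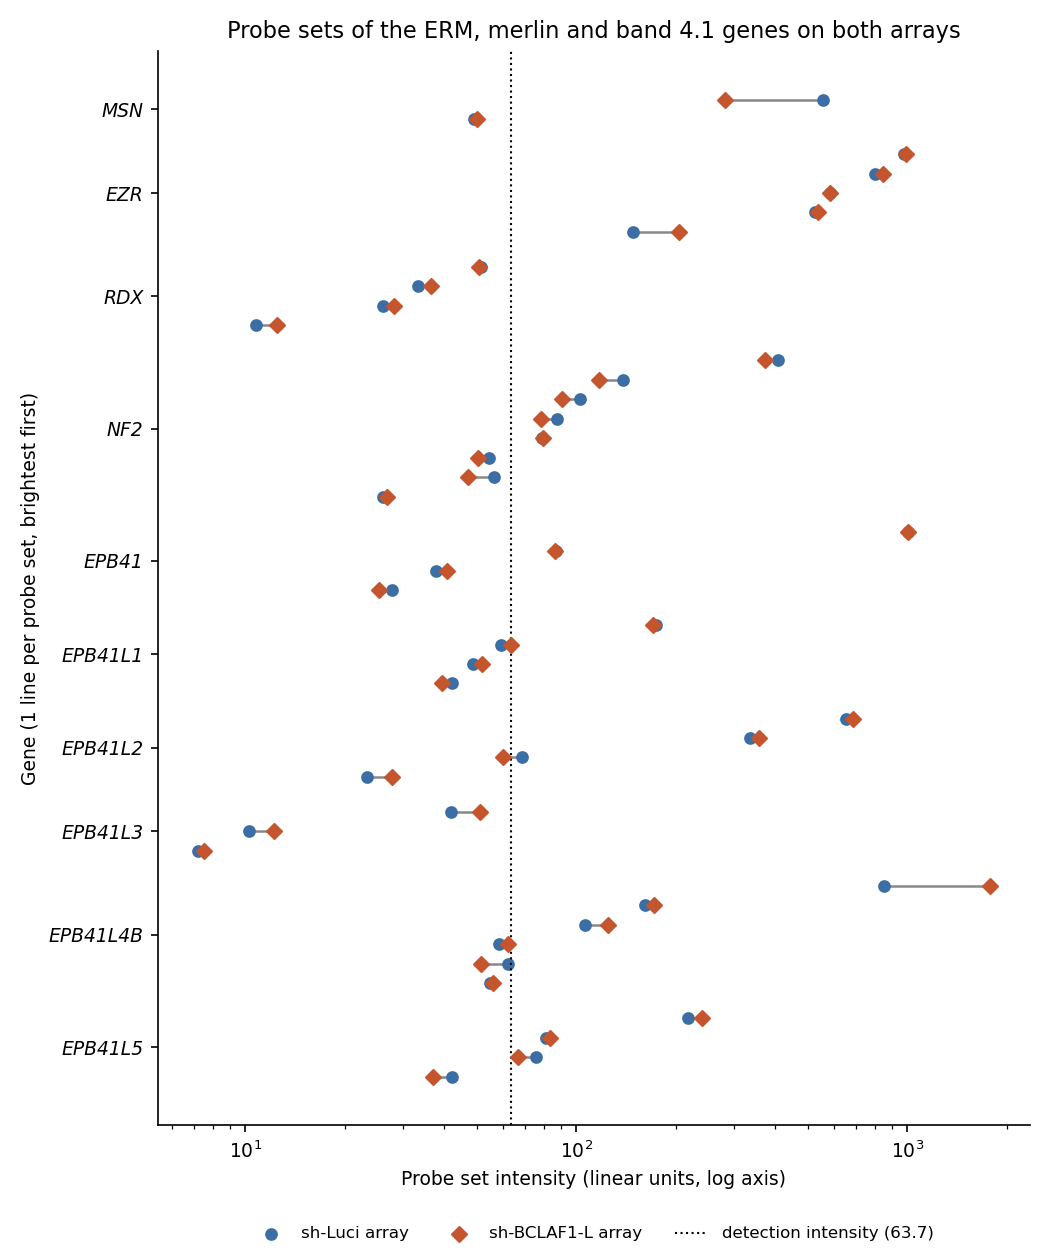
Intensity of every probe set of the 10 genes on the control array (blue circles) and the knockdown array (orange diamonds), on a log axis, with 1 line per probe set and the detection intensity of 63.7 dotted. The long lines belong to the brightest probe sets of MSN (556 and 281) and EPB41L4B (850 and 1780), while their other probe sets and those of the relatives lie close together.

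EPB41L4B, a band 4.1 protein also named EHM2 or LULU2 and known to activate actomyosin at the apical junctions of epithelial cells, had a difference past 1.5-fold on 1 of its 6 probe sets, and all 3 detected ones were on the higher side. Its brightest, 220161_s_at, read 850 on the sh-Luci array and 1780 on the sh-BCLAF1-L array, a difference of 1.07 or 2.09-fold. It ranked 9 from the highest of the 14507 detected genes, again as a description. The other detected probe sets, 223427_s_at and 220524_at, read 162 and 171, and 106 and 125, with differences of 0.082 and 0.23. The first of these was thus within the spread between probe sets of a gene, and the second above it and under 1.5-fold.

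The 3 undetected EPB41L4B probe sets read 58.4 and 62.1 (223426_s_at), 62.4 and 51.7 (233098_s_at), and 54.8 and 56.0 (223859_at). They differed by 0.087, -0.27 and 0.032. The 3 detected probe sets spanned 0.98 on the log2 scale, and of the 1786 genes with 3 detected probe sets, 5 spanned more, where the median span was 0.23. That span ends at the value of 220161_s_at, which led to the choice of the gene, so its place is a description only. The median over all 6 probe sets was 0.084, and the mean over the 3 detected ones 0.46. Like 200600_at of MSN, 220161_s_at is annotated by a current RefSeq transcript of its gene, and 9 of the 44 probe sets are. The sources used here do not say which EPB41L4B transcripts a probe set reads. A higher level of the whole gene and of some of its transcripts cannot be told apart with these values.

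EPB41, the founding band 4.1 protein of the red cell membrane, read 1009 and 1003 on 225051_at, a difference of -0.0081. Its second detected probe set, 1554481_a_at, read 86.6 and 86.5, a difference of -0.0028. Both EPB41 values were thus nearly the same on the 2 arrays. Its undetected probe sets read 37.8 and 40.6 (214530_x_at) and 27.8 and 25.4 (207793_s_at). EPB41L2, the widely expressed 4.1G, read 655 and 687 on 201719_s_at and 335 and 356 on 201718_s_at, with differences of 0.069 and 0.089. Its remaining detected probe set, 242092_at, lay at the edge of detection with 68.8 and 60.1 and differed by -0.19. The undetected 231174_s_at read 23.4 and 27.7. EPB41L2 therefore held no common direction over its 3 detected probe sets.

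EPB41L5, also named LULU1 and a partner of Crumbs proteins, read 218 and 240 on 225855_at, a difference of 0.14. Its other detected probe sets read 81.3 and 83.2 (220977_x_at) and 75.6 and 66.8 (229292_at), with differences of 0.033 and -0.18. The undetected 230951_at read 42.15 and 37.0 and differed by -0.18. The detected EPB41L5 probe sets thus went both ways. EPB41L1, the neuronal 4.1N, had 1 detected probe set, 212339_at, which read 174 and 171 and differed by -0.024. Its undetected probe sets read 59.2 and 63.4 (212336_at), 48.65 and 51.8 (222066_at), and 42.1 and 39.4 (230289_at). EPB41L3, the 4.1B protein lost in several tumours, was not detected. Its brightest probe set, 211776_s_at, read 41.8 and 51.3, and the others 10.3 and 12.3 (212681_at) and 7.19 and 7.52 (206710_s_at). Its differences of 0.057 to 0.29 over 3 probe sets rest on intensities between 7.19 and 51.3.

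Set against the detected probe sets of these 5 relatives, EPB41L4B lay above their range on 2 of its 3 detected probe sets. Its brightest, whose value led to the choice of the gene, was also past 1.5-fold. The 5 genes differed by -0.024 to 0.29 on their brightest probe sets, with a median of 0.069, and EPB41L4B exceeded that median by 0.997. Their 9 detected probe sets, none of them of EPB41L3, lay between -0.19 and 0.14, with 4 higher and 5 lower. The second brightest EPB41L4B probe set, at 0.082, lay inside that range. Probe set 220524_at, at 0.23, lay above it by less than the pooled SD between probe sets of a gene. The latter value was still below the 0.29 of EPB41L3, which was not detected. With each gene's median over its probe sets the gap was 0.052, and without probe sets named _s_at or _x_at it was 0.23.

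Over all 10 genes, 8 were detected, on 23 probe sets. Of these, 12 were higher and 11 lower in the knockdown (9 and 14 with the overall median subtracted), with a median difference of 0.0079. Over all 26452 detected probe sets that name 1 gene, 53.9% were higher (47.2% after subtraction), with a median of 0.015. Past 1.5-fold lay 1 of the 23 in each direction, 220161_s_at of EPB41L4B and 200600_at of MSN. In the background 0.465% were at least 1.5-fold higher and 0.231% at least 1.5-fold lower. Past 2-fold lay 1 higher and 0 lower, where 0.0567% and 0.0151% of the background did. These 2 probe sets are the ones whose values led to the set, so nothing is read from the shares. The other 21 detected probe sets differed by -0.25 to 0.46, and 18 of them by less than 0.2 in size. The 21 undetected ones differed by -0.27 to 0.29, at intensities of 7.19 to 63.4.

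**Figure D2:**
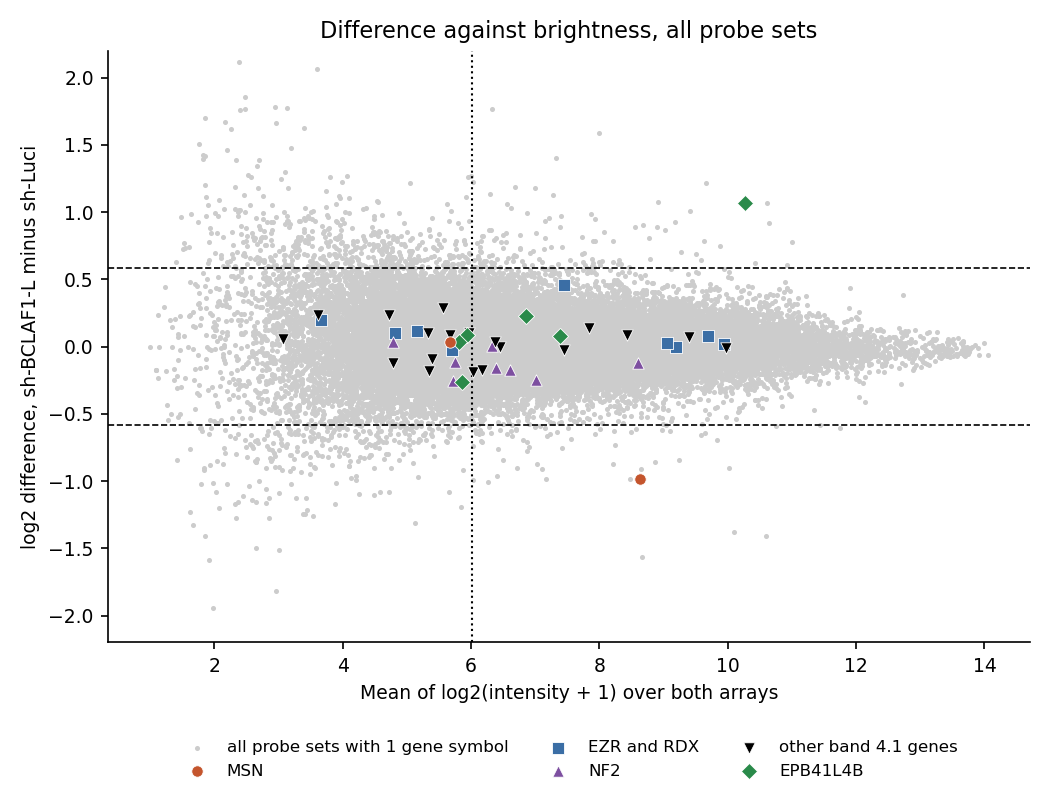
Log2 difference against mean log2(intensity + 1) for every probe set that names 1 gene (grey), with the ERM, merlin and band 4.1 probe sets in colour, the detection limit dotted and 1.5-fold dashed. The points of MSN at -0.98 and EPB41L4B at 1.07 lie outside the dashed lines, and the other 42 coloured points lie between them.

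The wider FERM-domain family was read on the same scale. Of 43 further genes with such a domain, 41 had a probe set and 30 were detected. None of the 30 was 1.5-fold higher or lower, where 0.434% and 0.2% of all detected genes were, and a count near 0 is what those shares give for a list of this length. They hold for each list that follows, so nothing particular to a list is read from a count of 0 past 1.5-fold. The 30 genes comprised 19 higher and 11 lower genes (15 and 15 with the overall median subtracted) with a median of 0.031, and over all detected genes 55.0% were higher (48.0% after subtraction) with a median of 0.019. PTK2, the focal adhesion kinase, read 1866 and 1830 in the control and the knockdown. FRMD6, the homologue of the Hippo regulator Expanded, read 1828 and 1767, JAK1, a cytokine receptor kinase, 1065 and 1151, and the phosphatase PTPN14 817 and 936. The extremes, named after their values were seen, were FRMD4B at -0.27 and MYLIP, a ubiquitin ligase with a FERM domain, at 0.27.

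The membrane proteins and adaptors that ERM proteins bind numbered 23, of which 17 were detected, 10 higher and 7 lower, with a median of 0.071. None was past 1.5-fold. The share of higher genes was 58.8% with or without subtraction of the overall median, and over all detected genes 55.0% (48.0% after subtraction). The hyaluronan receptor CD44, a classic ERM ligand, read 2097 and 2312, a difference of 0.14. The sialomucin PODXL read 838 and 923, and the complement regulator CD46 1172 and 1156. GNA13, the G protein subunit upstream of RHOA, read 1480 and 1680. Chosen after its value was seen, NHERF1, the scaffold that joins ezrin to membrane transporters, had the lowest difference of the list, at -0.24 (354 and 300). The highest, chosen in the same way, was AKAP5 at 0.28, with 60.8 and 74.0 near the detection intensity.

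Among the kinases, phosphatases and small GTPases that open or close ERM proteins, 21 of 23 listed were detected, 12 higher and 9 lower (11 and 10 after subtraction), with a median of 0.043 and none past 1.5-fold. Over all detected genes 55.0% were higher (48.0% after subtraction), so the list lay near the background. RHOA, the GTPase upstream of ERM phosphorylation, read 5046 and 4868. The catalytic subunits of protein phosphatase 1 differed in direction, with PPP1CC at 0.050 (4461 and 4619), PPP1CB at 0.20 (2720 and 3118) and PPP1CA at -0.34 (891 and 705), the lowest of the list and named after its value was seen. LATS1, a Hippo kinase placed on both this list and the next, read 1948 and 1899. STK10 and SLK, the kinases known to phosphorylate the ERM tail, were named after their values were seen and differed by -0.04 and 0.14. PRKCA, named in the same way, had the highest difference of the list, at 0.32 (145 and 182).

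The Hippo pathway genes that act with merlin numbered 22, of which 21 were detected, 12 higher and 9 lower (10 and 11 after subtraction), with a median of 0.015. None was past 1.5-fold, and the share of higher genes was again near the background of 55.0% (48.0% after subtraction). MOB1A, a LATS cofactor, read 2076 and 2024, and STK4, the kinase upstream of LATS, 1783 and 1860. The pathway's coactivators, named after their values were seen, were on the lower side, with YAP1 at -0.17 (1293 and 1149) and WWTR1 at -0.25 (962 and 811). WWTR1 was the lowest of the list. The highest, also named after its value was seen, was STK3 at 0.24 (464 and 548). Each was under 1.5-fold.

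Of 25 genes for the spectrin skeleton and the membrane partners of band 4.1 proteins, 20 were detected, 11 higher and 9 lower, with a median of 0.040 and none past 1.5-fold. That share of higher genes was the same as the 55.0% over all detected genes. With the overall median subtracted, the list kept 11 and 9, and 48.0% of all detected genes were higher. SPTBN1, the widely expressed beta spectrin, read 2497 and 2747, a difference of 0.14. The adhesion molecule CADM1, which binds band 4.1 proteins, read 1087 and 1112, the spectrin-actin adaptor ADD1 967 and 1015, and the methyltransferase PRMT5 941 and 874. The highest values, named after they were seen, belonged to the filament capper TMOD1 at 0.40 (193 and 256) and the alpha spectrin SPTAN1 at 0.38 (404 and 525). ANK3, ankyrin G, was the lowest at -0.28 (494 and 405).

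The Crumbs polarity complex, which EPB41L5 binds, had 12 of 13 genes detected. Of these, 10 were higher and 2 lower (9 and 3 after subtraction), with a median of 0.12. Over all detected genes 55.0% were higher (48.0% after subtraction), with a median of 0.019. None reached 1.5-fold. The atypical kinase PRKCI read 1790 and 1946, LIN7C 1051 and 1135, PARD3 886 and 969, and the scaffold PALS1 1054 and 1032. The highest difference, named after it was seen, was that of CRB1 at 0.45, with 74.4 and 102 near the detection intensity. The biotin spike-ins moved the same way, by a median of 0.20, and their part in this count was not tested.

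**Figure D3:**
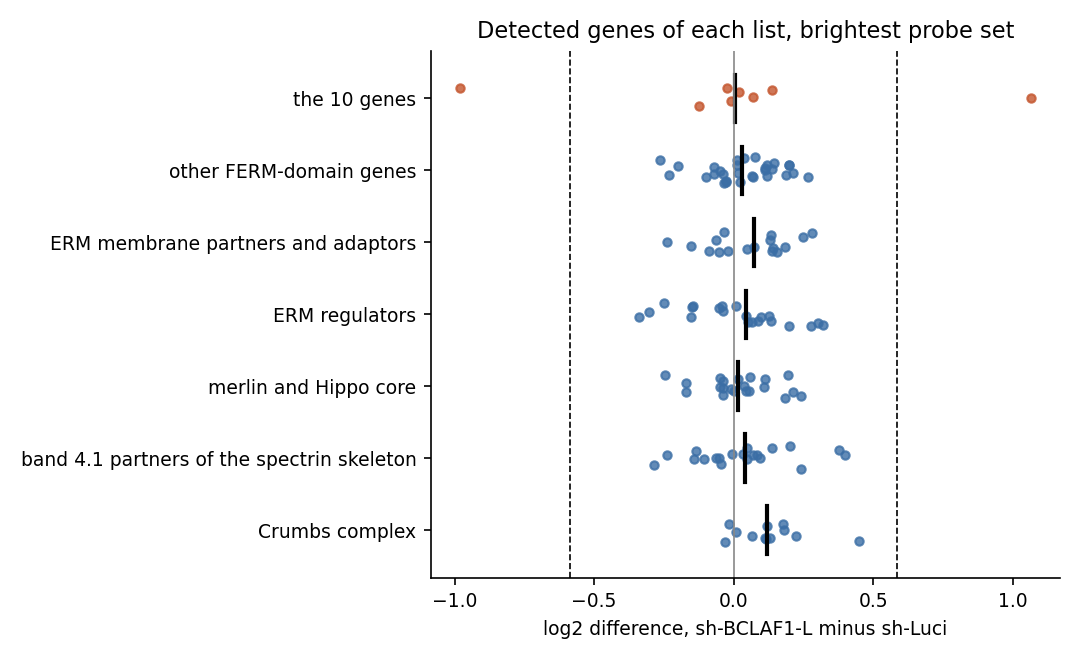
Log2 difference of each detected gene on its brightest probe set (points; vertical position within a row is arbitrary), for the 10 genes and the 6 lists of related genes, with each list's median as a black bar and 1.5-fold dashed. MSN and EPB41L4B lie outside the dashed lines at -0.98 and 1.07, and the genes of the 6 lists lie between -0.34 and 0.45.

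In the order of differences over both arrays, the detected genes closest to MSN were BCLAF1 at -1.41 and ADGRE2 at -0.99 below it, and KLHL31 at -0.91, CCDC178 at -0.90 and MX1 at -0.90 above it. Closest to EPB41L4B were ZNF148 at 1.01, FZD4 at 0.99 and PDP1 at 0.92 below it, and AKAP12 and ACYP1 at 1.07 each and MIR100HG at 1.13 above it. With 2 arrays this likeness is only a nearby place in the order, and BCLAF1, the targeted gene, stood well below MSN. Only BCLAF1, ZNF148, PDP1 and AKAP12 had more than 1 detected probe set. ADGRE2 read 90.85 and 45.25, the latter below the detection intensity of 63.7.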

How the data were processed

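The authors deposited 1 linear intensity per probe set and array, made with RMA per the submitters' processing notes. In general, RMA subtracts background, equalises the arrays' distributions and summarises probes. The deposited distributions were close and not identical, with medians of 82.7 on the control and 84.5 on the knockdown array. Their highest values were 17349 and 16650, and the lowest was 1 on both. How each step was run was not tested. Per the labels' protocols, biotinylated cRNA was made from 200 ng of total RNA with a kit that primes at the 3' end. Neither software, version nor final scaling is given in the sources used here.

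Here intensities were turned into log2(value + 1) in Python 3.11.15 with pandas 2.3.3. Of 54675 probe sets, 41097 had 1 gene symbol, 1801 several and 11777 none. Symbols were updated through Entrez identifiers in a RefSeq table of GRCh38.p14, which held 41043 of the 41097. No coordinates are printed, since no build is named for the probe sets. The scripts were tested on simulated data, and the number of arrays limits precision.

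The members, the gene lists and the thresholds were chosen with earlier results of these data known. Every probe set of the 10 genes was named, and, of each list, genes past 1.5-fold and the 4 brightest others. Likeness took 3 genes on either side in the order of differences. Of the listed genes, 11 have no probe set of their own and were not analysed here. Alternatives were other summaries per gene, no filter or the 60th percentile, a pseudocount of 32, median or loess (span 0.3) subtraction, leaving out probe sets named _s_at or _x_at, and log2 thresholds of 0.32 and 1.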

Additional observations from a re-analysis of the deposited data

How the results depend on the processing

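With 1 array per group, no spread could be estimated with or without pairing, and no replicate could be left out. MSN differed by -1.01 to -0.48 over 8 alternatives. It was under 1.5-fold with the median over all probe sets (-0.48, with gaps of -0.50 to EZR and -0.59 to RDX). Only that alternative brought in another MSN probe set, an undetected one. The others stayed past 1.5-fold, but each read the only detected MSN probe set again, several with the value unchanged at -0.98. They therefore could not test the lower MSN value. Without _s_at and _x_at probe sets EZR differed by 0.46 and the gap from MSN was -1.44. EPB41L4B was under 1.5-fold with the median over all probe sets (0.084), the mean over detected ones (0.46) and without _s_at and _x_at probe sets (0.23), with gaps of 0.052, 0.47 and 0.23 to the other band 4.1 genes. The count of higher member probe sets was 0 without _s_at and _x_at probe sets and 2 at a log2 threshold of 0.32, and that of lower ones 0 at 2-fold. At 0.32, 1135 of all 26452 detected probe sets that name 1 gene were higher. At 0.32, 1 ERM regulator was lower, and 2 spectrin partners and 1 Crumbs gene were higher. Of all 14507 detected genes, 603 were higher and 320 lower at that threshold. Without _s_at and _x_at probe sets, 1 spectrin partner was 1.5-fold higher, where 59 of 11511 detected genes were. Nothing particular to a list is read from these counts. List medians moved by less than the within-gene SD in all 8 alternatives run, and those of the Hippo and spectrin lists were -0.011 and -0.017 at their lowest. The radixin gap had no value with a filter at the 60th percentile or a mean over detected probe sets. Of all detected genes past 1.5-fold, 68.5% were higher (63 and 29), and 56.8% (54 and 41) after median subtraction. Dim probe sets limit RDX and EPB41L3, which no setting with a filter detected.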

Other observations

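The protein-coding genes that RefSeq places beside MSN and EPB41L4B on their chromosomes were read after the family values were seen. Beside MSN, LAS1L, a ribosome biogenesis factor, read 487 on the control and 531 on the knockdown array, and ZC3H12B read 171 and 147, with differences of 0.12 and -0.21. VSIG4 and HEPH, on its other side, were not detected. Beside EPB41L4B, the FERM-domain phosphatase PTPN3 read 384 and 374, TMEM245 read 1581 and 1504, and FRRS1L read 73.4 and 72.0. None of these differences reached 1.5-fold. RefSeq also lists the pseudogenes MSNP1, EZRP1, RDXP1, RDXP2 and RDXP3. No probe set carries one of these symbols, and whether the MSN, EZR and RDX probe sets also read them was not tested.

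The marker genes of RKO cells and of other cell types were compared in the same way. Of 5 general epithelial markers, EPCAM (477 and 472), KRT18 (979 and 674) and KRT8 (96.0 and 97.6) were detected, and CDH1 and KRT19 were not. KRT18, a keratin of simple epithelia, was thus 1.45-fold lower in the knockdown, on 1 detected probe set. Of 6 intestinal markers, LGALS4, GPA33, CDX2 and VIL1 were detected at 61.1 to 186, and CDH17 and KRT20 were not. Moesin is abundant in blood and endothelial cells, so their markers stand beside it. Of 9 blood cell markers 6 were detected, and their summed intensity over all 9 was 2179 and 1958. Most of that sum, and its lower value in the knockdown, rested on LCP1 (1438 and 1205). PTPRC, the common leukocyte antigen, read 41.2 and 43.3. The 6 endothelial markers summed to 450.3 and 469, with CDH5, KDR and TEK undetected, and the 7 fibroblast markers to 733 and 798. Their part in the MSN value was not tested.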
